A study of Mus musculus with 6 samples.

Results

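The insulin-like growth factor (IGF) family was examined in the extensor digitorum longus, or EDL, which is a muscle of the lower leg built mainly from fast fibres, as 10 genes taken from the deposited count table by symbol. These were the ligands Igf1 and Igf2, the receptors Igf1r and Igf2r, and the binding proteins Igfbp2 to Igfbp7. All 10 were found among the 24411 genes of the table, and 9 of them were among the 12892 genes with enough reads to be tested. The muscles came from 3 mAktDKO mice and 3 control floxed mice, all 50 weeks old and labelled as strain C57BL/6J. The mAktDKO mice carried floxed Akt1 and Akt2 alleles together with Mlc1f-Cre, and the control mice carried the floxed alleles without Cre. Cre was expressed from the myosin light chain locus Mlc1f, which is used mainly by fast fibres and little by satellite cells. The control mice are numbered 2 to 4 in the table and 1 to 3 in the labels, so they are named here by the table's numbers and stand for the group.

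IGF1 and IGF2 are small secreted proteins related to insulin. Both bind the IGF1 receptor, a tyrosine kinase that signals through insulin receptor substrates and PI3-kinase to Akt, and in muscle this route promotes growth and regeneration. The IGF2 receptor carries IGF2 and mannose 6-phosphate-tagged enzymes to lysosomes and has no kinase. The binding proteins hold the ligands outside the cell and either limit or prolong their action, and Igfbp7 encodes a relative that binds IGFs only weakly. Comparing the genotypes asks whether the RNA of these upstream components differs in muscle with Akt1 and Akt2 deleted in its fast fibres.

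Total counts were between 13738795 and 15445523 per mouse, at which the floor of 3 counts lies between 0.194 and 0.218 CPM (counts scaled to a common library size by TMM) and covers counting error only. No column was a copy of another, since the chi-square of the counts per degree of freedom was at least 7.64 over the 15 pairs of mice. The targeted gene Akt2 was 49.1 to 52.7 CPM in mAktDKO muscle, against 133 to 172 CPM in the control mice, and Akt1 was 51.4 to 58.9 and 65.5 to 66.5 CPM. Markers of fast fibres were abundant in all mice, with Myh4 between 47022 and 55567 CPM. Control mouse 2 stood apart. It had the lowest summed level of 8 markers of fibro-adipogenic cells and fibroblasts and of 6 markers of macrophages and leukocytes, and every marker of both lists was at its lowest of the 6 mice in it. It was also the lowest of the 6 mice for 7 of the 10 IGF family genes, against 28.8% of all tested genes, so the log2 fold changes of the tested members are given with and without it.

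The promoters of both ligands and of the IGF1 receptor are shown here because these 3 genes had the highest fold differences of the family. Each window covers 250 bases before and 50 bases after a start site annotated by RefSeq on GRCm38.p6 (the mm10 build), written 5′ to 3′ on the strand of the gene, and all 10 members matched a window. Capitals mark the GC box GGGCGG, a motif bound by Sp1, on either strand. Igf2 has 4 annotated start sites, and the pair of windows that hold a GC box are shown, named upstream and downstream by their order within the pair. The other Igf2 windows lie further upstream and hold no GC box. The Igf1 window holds none. The Igf1 window is chr10:87860861-87861160 on the + strand, and the Igf1r window is chr7:67952007-67952306 on the + strand. The Igf1 window lies inside the gene as annotated by GENCODE, which begins at 87858265, and the bases before that start were not scanned. The Igf2 windows are chr7:142658755-142659054 and chr7:142657447-142657746 on the - strand.
Igf1: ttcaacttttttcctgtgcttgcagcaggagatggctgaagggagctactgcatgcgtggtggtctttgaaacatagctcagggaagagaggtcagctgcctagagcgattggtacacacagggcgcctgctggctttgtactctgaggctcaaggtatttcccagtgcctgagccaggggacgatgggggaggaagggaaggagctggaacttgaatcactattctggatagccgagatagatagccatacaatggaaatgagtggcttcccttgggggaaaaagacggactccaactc
Igf1r: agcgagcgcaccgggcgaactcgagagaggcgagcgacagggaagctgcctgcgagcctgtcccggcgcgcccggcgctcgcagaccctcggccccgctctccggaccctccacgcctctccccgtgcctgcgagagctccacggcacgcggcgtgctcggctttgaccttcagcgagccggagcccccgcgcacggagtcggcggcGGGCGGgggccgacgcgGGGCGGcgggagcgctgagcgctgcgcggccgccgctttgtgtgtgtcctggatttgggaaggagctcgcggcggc
Igf2, upstream start: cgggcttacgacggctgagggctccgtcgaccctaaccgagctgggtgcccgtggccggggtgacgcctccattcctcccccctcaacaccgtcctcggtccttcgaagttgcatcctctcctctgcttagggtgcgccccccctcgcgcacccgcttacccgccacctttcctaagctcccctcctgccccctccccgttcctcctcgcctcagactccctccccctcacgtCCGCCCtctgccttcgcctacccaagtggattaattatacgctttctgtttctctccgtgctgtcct
Igf2, downstream start: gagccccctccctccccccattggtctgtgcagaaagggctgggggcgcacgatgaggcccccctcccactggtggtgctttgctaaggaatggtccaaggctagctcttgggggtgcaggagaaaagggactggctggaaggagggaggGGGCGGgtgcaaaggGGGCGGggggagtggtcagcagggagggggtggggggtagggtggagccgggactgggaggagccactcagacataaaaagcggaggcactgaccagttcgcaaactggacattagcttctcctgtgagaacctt

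The GC box was found in 6 of the 14 windows of the family, belonging to 5 of the 10 members, and in 35.7% of all 32851 promoters. The Igf1r window was the richest in G and C of the 14, at 76.0%, and held 48 CpG dinucleotides, whereas the Igf1 window had 52.3% and 6. The medians over all promoters were 52.7% and 7. The letters GTAAACA, which FoxO factors bind, were in 0 of the 14 windows on either strand and in 3.65% of all promoters. The letters TTCNNNGAA, which STAT5 binds, were in 0 of the 14 and in 8.30%. These matches describe the windows alone, and the counts per gene do not tell which start site of Igf2 or which form of Igf1 was transcribed.

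In the comparison of genotypes, 0 of the 9 tested members passed the adjusted p threshold of 0.01 that the study uses, and 4 of the 9 had an unadjusted p under 0.05 (quasi-likelihood test of edgeR, p-values adjusted over all tested genes by Benjamini-Hochberg). Over all tested genes 0.0233% passed the first threshold, and 24.5% had an unadjusted p under 0.05. At an adjusted p under 0.05, Igf2 and Igf1r were called, both higher in the mAktDKO mice, against 1.18% of all tested genes in either direction and 0.264% in this direction. DESeq2's Wald test, the tool of the study, called the same 2 genes at 0.01, where it called 3.46% of the 9781 genes to which it gave an adjusted p, 0.92% as higher. It called both again without control mouse 2, beside 3.16% of its genes. Without control mouse 2, edgeR called 1 member at 0.01, Igf2, against 0.0609% of all genes in either direction and 0.0228% in this direction, and called Igf2 and Igf1r at 0.05, against 1.1%. For 4 of the 9 members, Igf1, Igf2, Igf1r and Igfbp4, every mAktDKO mouse lay above every control mouse, and 14.6% of all tested genes did so. The same 4 were apart in this direction without control mouse 2, when 19.2% of all tested genes were. Of the 9 log2 fold changes 7 were above 0 and 2 below, with a median of 0.20 beside 0.017 over all tested genes. Without control mouse 2 the median of the 9 was 0.095.

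**Figure D1:**
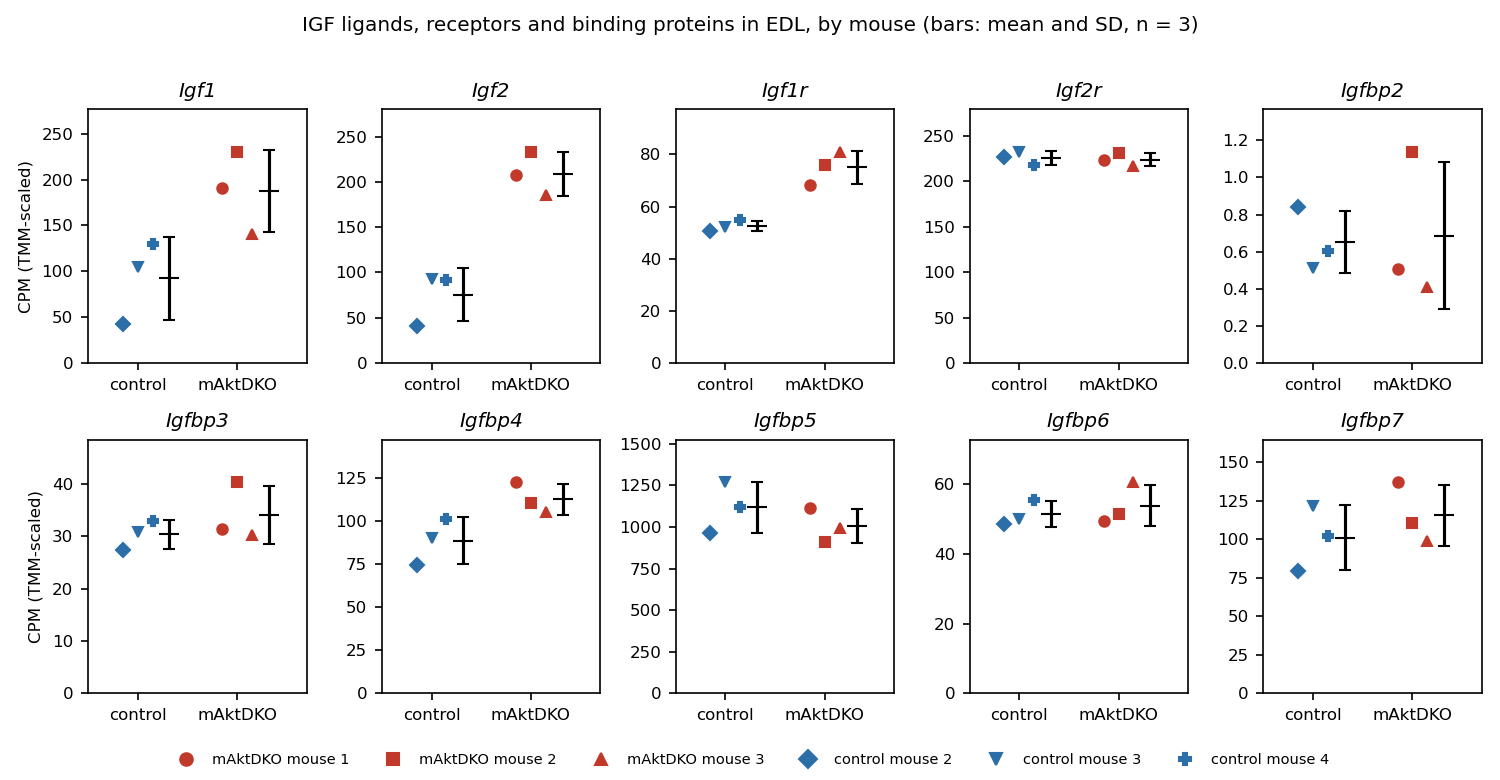
CPM scaled by TMM (vertical axes, each from 0) of the 10 IGF family genes in each of 3 control and 3 mAktDKO mice, with the mean and SD of each group beside the points. The groups are apart for Igf1, Igf2, Igf1r and Igfbp4, and control mouse 2 lies below both other control mice for Igf1 and Igf2.

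Igf2 encodes the fetal growth factor that is expressed from the paternal allele and that falls after birth but persists in adult muscle. It lies on chromosome 7 of mm10 from 142650766 to 142666816. Igf2 was at 208, 233 and 185 CPM in mAktDKO mice 1 to 3 and at 41.5, 92.9 and 92.1 CPM in control mice 2 to 4. The lowest mAktDKO mouse was thus above the highest control mouse, and control mouse 2 was far below both other control mice. The group means were 209 ± 24.1 CPM (SD, n = 3) and 75.5 ± 29.5 CPM (SD, n = 3), and the fitted level was 2.77-fold higher in the mAktDKO mice with a 95% interval of 1.83 to 4.17. The log2 fold change was 1.47 (SE, the standard error, 0.26, edgeR adjusted p = 0.0474). Without control mouse 2 it was 1.17 (SE 0.11, edgeR adjusted p = 0.00331), a 2.25-fold higher level with an interval of 1.91 to 2.66. The difference was smaller without this mouse and its interval narrower, and the remaining control mice differed by less than 1 CPM. The call at 0.05 was lost when control mouse 3 or any one of the mAktDKO mice was left out, with edgeR adjusted p = 0.0827 without control mouse 3 and from 0.115 to 0.220 without a mAktDKO mouse. In DESeq2's Wald test the value with all mice was 1.46 (SE 0.37, adjusted p = 0.00378).

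Igf1 encodes the ligand that muscle makes for local use and that liver secretes into the circulation under growth hormone. It lies on chromosome 10 from 87858265 to 87937042. Its levels were 191, 230 and 141 CPM in mAktDKO muscle, against 42.3, 104 and 130 CPM in control muscle. The groups did not overlap, but mAktDKO mouse 3 and control mouse 4 were only 10.6 CPM apart. The means were 187 ± 45.0 CPM (SD, n = 3) and 92.3 ± 45.1 CPM (SD, n = 3), and the 2.03-fold difference had a 95% interval of 1.18 to 3.50. Igf1 did not pass the threshold, at a log2 fold change of 1.02 (SE 0.35, edgeR adjusted p = 0.127). Without control mouse 2 it was 0.68 (SE 0.18, edgeR adjusted p = 0.0990), and the difference was 1.60-fold. DESeq2 gave 1.01 (adjusted p = 0.195). From RT-PCR of EDL, the paper reports that the local form of Igf1 was not affected in mAktDKO mice. The counts used here are per gene and do not separate its forms. Igf1 and Igf2 shared the low value in control mouse 2, and their order among the mAktDKO mice was the same, with mouse 2 highest and mouse 3 lowest for both.

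The ratio of the ligands, a comparison added after their values were seen, set the groups apart with and without control mouse 2. Reads of Igf2 per read of Igf1 were 1.09, 1.01 and 1.32 in the mAktDKO mice and 0.980, 0.890 and 0.708 in control mice 2 to 4. The lowest mAktDKO mouse was above the highest control mouse (two-sided exact permutation p = 0.1, which is as small as 3 mice against 3 permit). The exons of Igf1 are longer, and per length the level of Igf2 was above that of Igf1 in all 6 mice. H19, the maternally expressed RNA next to Igf2 that shares its enhancers, was likewise added after its values were seen. It was at 1649, 1795 and 1501 CPM in mAktDKO muscle, against 975, 1511 and 1160 CPM in the control mice, so its groups overlapped. Its log2 fold change was 0.44 (SE 0.16, edgeR adjusted p = 0.138), and 0.30 without control mouse 2 (edgeR adjusted p = 0.253). Reads of Igf2 per read of H19 were 0.126, 0.130 and 0.123 in the mAktDKO mice and 0.0425, 0.0615 and 0.0794 in the control mice, again without overlap (two-sided exact permutation p = 0.1). Igf2 alone already set the groups apart, so its ratio to H19 adds no separate evidence. The 4 ratios computed in this report, of ligands, of receptors and of neighbours, all had this p, which Benjamini-Hochberg adjustment over the 4 leaves at 0.1.

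Igf1r encodes the receptor through which both ligands reach Akt. It lies on chromosome 7 from 67952827 to 68233668. Igf1r was at 68.4, 75.8 and 81.0 CPM in mAktDKO muscle, against 50.8, 52.3 and 54.7 CPM in control muscle. The control mice were close together, control mouse 2 was not set apart, and the nearest mice of the 2 groups were 13.6 CPM apart. The means were 75.1 ± 6.38 CPM (SD, n = 3) and 52.6 ± 1.97 CPM (SD, n = 3), and the level in the mAktDKO mice was 1.43-fold higher with an interval of 1.24 to 1.63. The log2 fold change was 0.51 (SE 0.087, edgeR adjusted p = 0.0422) and 0.49 without control mouse 2 (SE 0.093, edgeR adjusted p = 0.0474). DESeq2 gave 0.50 (SE 0.11, adjusted p = 0.000921). The call of edgeR at 0.05 was lost without control mouse 3, at an edgeR adjusted p = 0.0939, and without any one of the mAktDKO mice, at 0.0966 to 0.220. Igf1r thus had a smaller fold difference than either ligand, and its value moved less than theirs when control mouse 2 was left out.

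Igf2r, which encodes the receptor that clears IGF2, lies on chromosome 17 from 12682406 to 12769664. It was at 223, 231 and 217 CPM in mAktDKO muscle, against 227, 232 and 218 CPM in the control mice, with the groups fully mixed. The log2 fold change was -0.012 (SE 0.075, edgeR adjusted p = 0.938), and -0.0097 without control mouse 2. Its 95% interval, from -0.18 to 0.16, held neither the difference of Igf1r nor that of either ligand. Reads of Igf1r per read of Igf2r were 0.307, 0.328 and 0.373 in the mAktDKO mice and 0.224, 0.225 and 0.251 in the control mice (two-sided exact permutation p = 0.1). Insr, which encodes the insulin receptor and is the closest relative of Igf1r, was at 164, 186 and 202 CPM in mAktDKO muscle, against 183, 162 and 168 CPM in control muscle, at a log2 fold change of 0.10 (edgeR adjusted p = 0.524) and of 0.15 without control mouse 2. Reads of Igf1r per read of Insr were 0.400 to 0.416 in the mAktDKO mice and 0.277 to 0.326 in the control mice, so the groups were apart (two-sided exact permutation p = 0.1). Both receptor ratios were chosen after the values were seen, and Igf1r alone already set the groups apart, so they add no separate evidence.

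**Figure D2:**
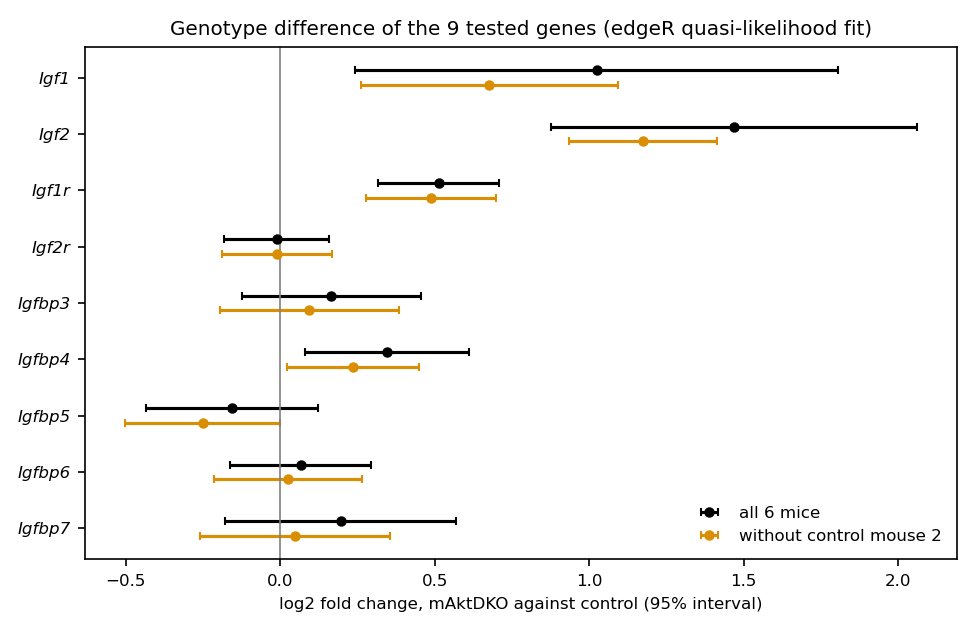
Log2 fold change between mAktDKO and control mice (horizontal axis) of the 9 tested IGF family genes, with the 95% interval of edgeR's quasi-likelihood fit, for all 6 mice and without control mouse 2. The intervals of Igf1, Igf2, Igf1r and Igfbp4 lie above 0 in both fits, and the values of Igf1 and Igf2 fall from 1.02 to 0.68 and from 1.47 to 1.17 without this mouse. The interval of Igfbp5 lies just below 0 without this mouse and spans 0 with all mice.

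Of the 6 binding proteins, 5 were tested and 0 passed the threshold at 0.01 or 0.05. An unadjusted p under 0.05 (edgeR) was found for 1 of the 5, Igfbp4, against 24.5% of all tested genes. DESeq2 called 0 of them. Igfbp4, which encodes a secreted inhibitor of IGF action that the protease Pappa cleaves, lies on chromosome 11 from 99041244 to 99054392. It was at 123, 111 and 105 CPM in mAktDKO muscle, against 74.9, 90.1 and 102 CPM in the control mice, so that the groups were apart by the small gap between mAktDKO mouse 3 and control mouse 4. The log2 fold change was 0.35 (SE 0.12, edgeR adjusted p = 0.128), and 0.24 (edgeR adjusted p = 0.218) without control mouse 2.

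Igfbp5, on chromosome 1 from 72857932 to 72874884, encodes the binding protein with the most reads in this muscle, one known to be induced as myoblasts differentiate. It was at 1111, 907 and 995 CPM in mAktDKO muscle, against 965, 1269 and 1119 CPM in the control mice, so the groups overlapped. Its log2 fold change was -0.15 (95% interval -0.43 to 0.12, edgeR adjusted p = 0.457). Without control mouse 2 every mAktDKO mouse lay below both control mice, and 39.0% of all tested genes then had groups apart. The log2 fold change of Igfbp5 was then -0.25 (95% interval -0.50 to -0.00027, edgeR adjusted p = 0.259), with the interval just below 0. Igfbp5 was thus the only tested binding protein with an estimate below 0, in both fits.

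Igfbp3, whose product carries most of the IGF in blood, lies on chromosome 11 from 7206086 to 7213923 and ranged from 30.2 to 40.4 CPM in the mAktDKO mice and from 27.3 to 33.0 CPM in control muscle. Igfbp6, whose product prefers IGF2, lies on chromosome 15 from 102144362 to 102149511 and ranged from 49.5 to 60.7 CPM and from 48.6 to 55.6 CPM. Igfbp7, on chromosome 5 from 77349240 to 77408041 and best known from blood vessels, ranged from 99.0 to 137 CPM and from 79.4 to 122 CPM. In all 3 genes the groups overlapped. Their log2 fold changes were 0.17 for Igfbp3 (95% interval -0.12 to 0.45), 0.066 for Igfbp6 (-0.16 to 0.30) and 0.20 for Igfbp7 (-0.18 to 0.57), with edgeR adjusted p values from 0.443 to 0.711. The values without control mouse 2 were 0.095 for Igfbp3, 0.026 for Igfbp6 and 0.047 for Igfbp7. These intervals with all mice lie within a 1.5-fold difference in either direction. Igfbp2, on chromosome 1 from 72824503 to 72852474 and a neighbour of Igfbp5 at a distance of 5457 bases, had 6 to 19 counts per mouse and was below the filter. It was at 0.507, 1.14 and 0.411 CPM in mAktDKO muscle, against 0.839, 0.511 and 0.605 CPM in control muscle. A difference in Igfbp2 was not detectable at this depth, since without the filter its 95% interval ran from -1.01 to 1.17 on the log2 scale (log2 fold change 0.079).

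Counts were then divided by the length of each gene's exons to compare levels between genes. In CPM per kilobase, averaged over the 6 mice, Igfbp5 was highest at 177, followed by Igfbp7 at 89.6 and Igfbp6 at 47.4. Igf2 was at 27.1, Igfbp4 at 25.7, Igf2r at 25.3 and Igf1 at 14.1. Igfbp3 was at 10.3, Igf1r at 5.60 and Igfbp2 at 0.458. The ranges over the mice did not overlap between Igfbp5 and Igfbp7, Igfbp7 and Igfbp6, Igf2r and Igf1, Igfbp3 and Igf1r, or Igf1r and Igfbp2. The separation of Igf2r and Igf1 depended on the length used. With the longest transcript as the length, Igf1 was at 27.1 and 32.7 in mAktDKO mice 1 and 2, above Igf2r at 25.1 and 26.0. The ranges overlapped between Igfbp6 and Igf2, Igf2 and Igfbp4, Igfbp4 and Igf2r, and Igf1 and Igfbp3, so these neighbours were not told apart beyond their spread. Igf2 had the widest place in the order. Its level per length was 35.3 to 44.5 CPM per kilobase in the mAktDKO mice, above Igf2r in each of them, and 7.90 to 17.7 in the control mice, below Igf2r in each of them. Exon length stands for the length of the RNA, which is not measured here.

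**Figure D3:**
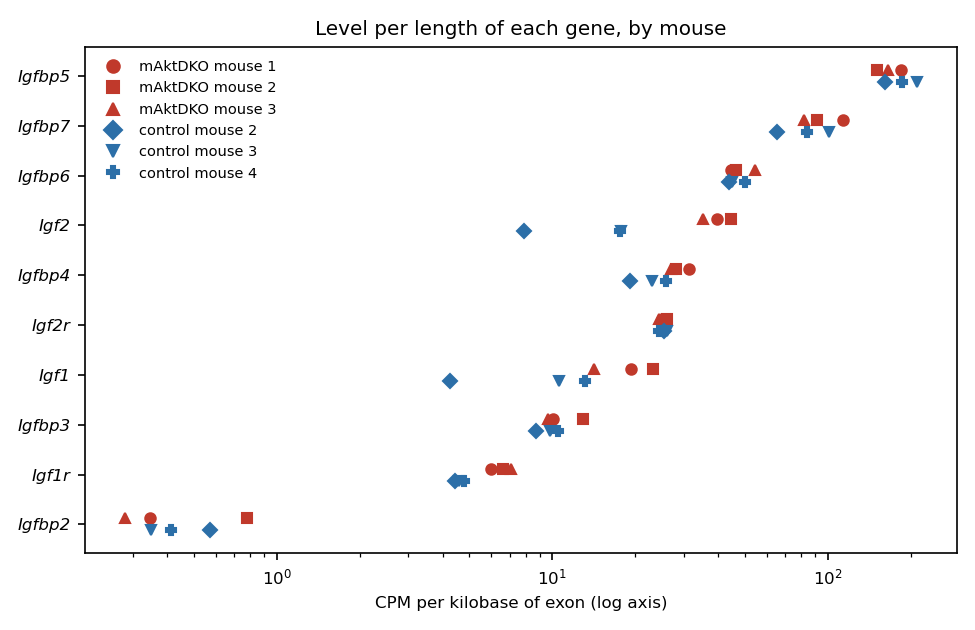
Level of each IGF family gene in CPM per kilobase of exon (horizontal log axis), with 1 point per mouse and the genes ordered by their mean. Igfbp5 is highest at 151 to 211 and Igfbp2 lowest at 0.282 to 0.780, and Igf2 spans 7.90 to 44.5.

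The make-up of the binding protein pool was compared on the same scale. Igfbp5 made up 48.1%, 45.7% and 48.9% of the summed level per length of the 6 binding proteins in mAktDKO mice 1 to 3 and 53.9%, 54.2% and 52.1% in control mice 2 to 4. Each mAktDKO mouse thus had a lower share than any control mouse, control mouse 2 included. The share of Igfbp4 was 7.93% to 8.53% in the mAktDKO mice and 5.88% to 7.25% in the control mice, also without overlap. Igfbp7 held 24.2% to 29.5% and 22.0% to 25.8%, Igfbp6 held 11.6% to 16.1% and 11.6% to 14.6%, and Igfbp3 held 2.61% to 3.90% and 2.52% to 2.95%, each with overlapping groups. Igfbp2 was at most 0.236% in any mouse. As shares add to a fixed total, a lower share of Igfbp5 raises the others, and the shares are a description with no test.

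**Figure D4:**
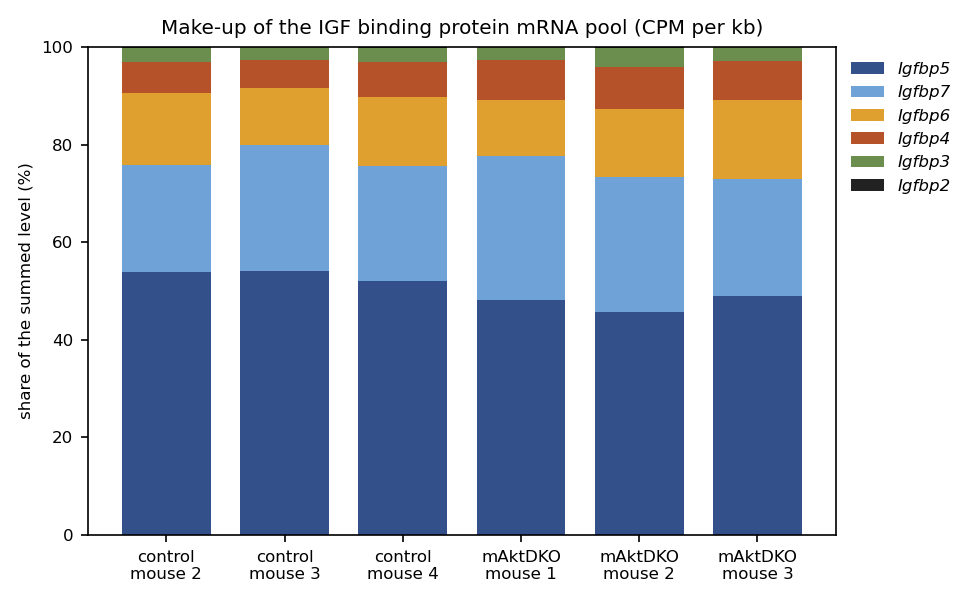
Share of each of the 6 IGF binding proteins in their summed level (vertical axis, percent of CPM per kilobase) in each control and mAktDKO mouse. Igfbp5 takes 52.1% to 54.2% in the control mice and 45.7% to 48.9% in the mAktDKO mice, and Igfbp2 is too low to be seen.

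Other genes of the pathway were read from the same fit. None passed the threshold of 0.01 or 0.05 by edgeR, while DESeq2 called 1 at 0.01, Irs1, against 3.46% of its genes. An unadjusted edgeR p under 0.05 was found for 3 of the 8 signalling genes, 1 of the 7 protease genes, 1 of the 8 growth hormone genes and 0 of the other lists, against 24.5% of all tested genes. Among 8 genes that carry the signal from insulin and IGF receptors, 7 had an estimate above 0 and the smallest adjusted p was 0.0691 (edgeR), with a median log2 difference of 0.21. It belonged to Irs1, which encodes an adaptor that both receptors phosphorylate and which was at 476, 594 and 481 CPM in mAktDKO muscle, against 256, 343 and 395 CPM in control muscle. Shc1, an adaptor of the Ras branch, was at a log2 fold change of 0.33 (adjusted p = 0.128) and Grb10, an inhibitory adaptor of both receptors, at 0.31 (edgeR adjusted p = 0.184). Irs1 was at 0.64 with all mice and 0.49 without control mouse 2, when Shc1 was at 0.27 and Grb10 at 0.16. Of 7 proteases of binding proteins and their inhibitors, 6 were above 0, with a median of 0.41. Adamts1, which encodes a secreted metalloprotease, came nearest to the threshold at 0.40 (SE 0.089, edgeR adjusted p = 0.0587), with 69.6 to 79.2 CPM in mAktDKO muscle, against 54.1 to 61.8 CPM in control muscle. Pappa was at a log2 fold change of 0.42 (adjusted p = 0.288) and Htra1 at 0.41 (edgeR adjusted p = 0.346), and without control mouse 2 they were at 0.20 and 0.11. The median of the 7 was 0.16 without control mouse 2.

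Of 8 genes of growth hormone signalling, which drives Igf1 in liver, 4 were above 0 and 4 below, with a median log2 difference of 0.0032. The receptor gene Ghr had 153 to 180 CPM in mAktDKO muscle, against 150 to 181 CPM in the control mice, fully mixed. Socs3, a feedback inhibitor, had the smallest p of the list at a log2 fold change of 0.49 (edgeR adjusted p = 0.143), followed by Socs1 at 0.80 (adjusted p = 0.223) and Stat5a at -0.15 (edgeR adjusted p = 0.624). Socs3 was at 0.55, Socs1 at 0.99 and Stat5a at 0.064 without control mouse 2. Of 6 CCN genes, which encode matrix proteins with a domain like that of the binding proteins, 5 were tested, all above 0 with a median of 0.26 and a smallest adjusted p of 0.217 for Ccn4 (edgeR). Ccn1 was at 0.26 (adjusted p = 0.242) and Ccn2 at 0.26 (edgeR adjusted p = 0.408). Ccn4 was at 0.79 with all mice and at 0.42 without control mouse 2. Of 6 other binding and carrier genes, Igfals, the partner of IGF complexes in blood, and Igf2bp2, which encodes an RNA-binding protein of Igf2 transcripts, were tested, at 0.47 (adjusted p = 0.314) and 0.43 (edgeR adjusted p = 0.220), and without control mouse 2 at 0.26 for both. Igfbp1, Igfbpl1, Igf2bp1 and Igf2bp3 were below the filter, as was Ccn6.

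Markers of cells other than fibres were read from the same mice. In bulk muscle, fewer cells of a type and less RNA per cell cannot be told apart. The summed level of the 8 fibro-adipogenic and fibroblast markers was 21603, 18485 and 21905 CPM in mAktDKO muscle, against 7401, 15916 and 18551 CPM in control muscle. All 8 had an estimate above 0, with a median log2 difference of 0.47 (0.24 without control mouse 2), and 0 passed 0.05 (smallest edgeR adjusted p = 0.0539, for Dcn). An unadjusted edgeR p under 0.05 was found for 4 of the 8, against 24.5% of all tested genes, and DESeq2 called Dcn at 0.01. Control mouse 2 was lowest of the 6 mice for all 8, as it was for Igf1 and Igf2, and none of the markers was at 0. Most of the sum was collagen, with Col1a1 at 5899 CPM in control mouse 2 beside 12346 and 14935 CPM in the other control mice. Pdgfra, a surface marker of the fibro-adipogenic cells, was at 62.8 CPM beside 75.7 and 73.9 CPM, and Pi16 was lower there by a smaller margin. Among the mAktDKO mice, mouse 2 had the lowest sum but the highest Igf1 and Igf2. The order varied by marker. Pdgfra, at 86.0, 87.9 and 79.3 CPM in mAktDKO mice 1 to 3, and Lum, at 68.6, 105 and 55.9 CPM, had the ligands' order. Dcn, at 587, 670 and 699 CPM, and Col1a1, at 17588, 14402 and 18884 CPM, did not. The 6 macrophage and leukocyte markers summed to 87.2 to 112 CPM in mAktDKO muscle, to 54.7 CPM in control mouse 2 and 86.3 to 94.3 CPM in the other control mice, with a median log2 difference of 0.46 and of 0.26 without control mouse 2. The 7 tendon cell markers summed to 1299 to 1851 CPM and 987 to 1323 CPM, with a median of 0.59. Without control mouse 2, 1 of these genes, Kera, passed 0.05 (edgeR adjusted p = 0.0227), against 1.1% of all tested genes. The part of these cells in the values of Igf1 and Igf2 was not tested.

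The 7 endothelial markers summed to 591 to 683 CPM in mAktDKO muscle, against 521 to 611 CPM in the control mice, with a median log2 difference of 0.088, and the 6 satellite cell markers to 46.0 to 51.5 CPM and 48.6 to 62.4 CPM, with a median of -0.050. The 6 smooth muscle and pericyte markers had a median of 0.017, the 6 Schwann cell markers one of 0.26, the 6 adipocyte markers one of 0.96, although their sum was 331 to 412 and 379 to 474 CPM, and the 7 slow fibre markers one of 0.44. The 10 fast fibre markers had estimates below 0 without exception, with a median of -0.21. Of all the marker lists, 1 gene passed 0.05 with all mice (edgeR), the globin gene Hbb-bs, against 1.18% of all tested genes. DESeq2 at 0.01 called Hbb-bs too, with 4 of the 10 fast fibre markers and 2 of the 7 tendon cell markers. It also called 1 of the 6 adipocyte markers, Plin4, and, of the 8 fibro-adipogenic and fibroblast markers, Dcn. Of the 6 adipocyte markers, 5 had an estimate above 0 and 1 below. Over all the genes to which it gave an adjusted p, DESeq2 called 3.46%.

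**Figure D5:**
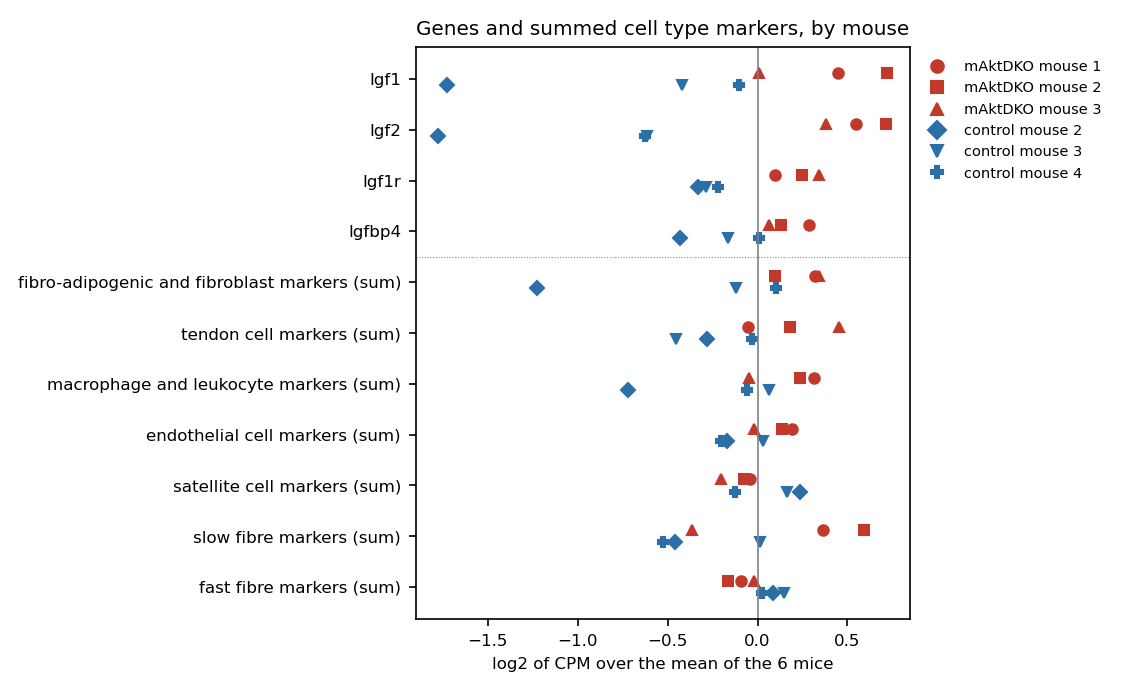
Log2 of the CPM in each mouse over the mean of the 6 mice (horizontal axis) for 4 IGF family genes, above the dotted line, and for the summed markers of 7 cell types, below it. Control mouse 2 lies far to the left for Igf1, Igf2 and the summed fibro-adipogenic and fibroblast markers, most of which is collagen, and the sums of the other cell types show a smaller spread among the control mice.

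Hbb-bs, a beta-globin gene of the red blood cell list, had 370, 154 and 146 counts in the mAktDKO mice and was listed at 0 in all 3 control mice, while the near-identical copies Hbb-b1, Hbb-b2 and Hbb-bt had counts in every mouse, so the division of reads among them is uncertain. Hbb-bs lies on chromosome 7 from 103826534 to 103828096, between Igf1r and Igf2 and on the chromosome of the targeted gene Akt2. The part of inherited differences along this chromosome in the values of Igf1r and Igf2 was not tested.

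Some members share their locus with other annotated genes, and whether strand was used in counting is not given in the sources used here. Igf2 overlaps Igf2os on the opposite strand, which had at most 8.96 counts in a mouse against at least 593 for Igf2. Igf2r overlaps the antisense RNA Airn, which had at most 61 counts against at least 2880. The 3′ end of Igfbp7 overlaps Polr2b on the opposite strand, with up to 917 counts. The division of reads between such partners is uncertain.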

How the data were processed

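EDL RNA of 3 mAktDKO and 3 control floxed mice was analysed. Directional, rRNA-depleted libraries were sequenced by the authors with paired-end reads. The submitters' processing notes name STAR 2.6.1b, the build mm10 and RSEM 1.3.1, and the paper's methods name another version of STAR. The deposited values are expected counts per gene, not scaled between mice. Depending on the mouse, 3.36% to 4.09% were not whole.

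From the deposited expected counts, rounded to whole numbers, genes were filtered with filterByExpr (minimum count 10), scaled by TMM and tested over the whole table with edgeR 4.0.16 in R 4.3.3. Calls were made, at the study's threshold, at a Benjamini-Hochberg adjusted p under 0.01, and 95% intervals come from the F statistic. DESeq2 1.42.0 was an alternative. The labels do not state that each sample is a separate animal. The samples are called mice here, and the p-values measure the spread between these 6 samples, which may be technical. Gene positions and exon lengths are from GENCODE M21, promoters from RefSeq. All 6 CCN genes were matched by an older symbol.

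The steps were tested on simulated counts of 12892 genes with 200 changed 2-fold between the genotypes. Of these edgeR recovered 94% at 0.01 with 0 false calls. The counts were drawn with the spread typical of each gene's level and without an outlying mouse, and only more abundant genes were changed. The recovered share thus does not hold for genes with a wider spread, such as Igf1, 2.03-fold higher at an edgeR adjusted p = 0.127. The 10 members were named in full. Of each pathway list, genes past 0.01 or else up to 3 with the smallest p were named, plus genes below the filter, and Insr and Ghr were added after their values were seen. The members and lists were chosen with earlier results of these data known. H19 and the ratios were chosen after their values were seen. The alternatives were other scalings, filters, thresholds and tests, other gene lengths, and leaving out each mouse.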

Additional observations from a re-analysis of the deposited data

How the results depend on the processing

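No paired analysis was possible because the labels name no pairs of mice. Replicate numbers could not stand for pairs, as floxed mice are numbered 2 to 4 in the table but 1 to 3 in the labels. The number of IGF family genes called was 0 with all 6 mice and edgeR, 2 at an adjusted p under 0.05, 2 with DESeq2's Wald test and 2 with DESeq2 without control mouse 2 (chosen after seeing the data), and from 0 to 1 when single mice were left out, the 1 being Igf2 without control mouse 2. Over all genes the number was 3, 152 at 0.05, 32 without the filter, 338 with DESeq2 and 235 with DESeq2 without control mouse 2. It was from 0 to 8 when single mice were left out, with 8 without control mouse 2 and 0 without any one of the mAktDKO mice.

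Without single mice the log2 fold change ranged from 1.17 to 1.64 for Igf2 (adjusted p from 0.00331 to 0.220), 0.44 to 0.58 for Igf1r (0.0423 to 0.220), 0.68 to 1.35 for Igf1 (0.0696 to 0.359), 0.24 to 0.45 for Igfbp4, -0.039 to 0.0082 for Igf2r, -0.043 to 0.12 for Igfbp6 and -0.062 to 0.32 for Igfbp2, all from edgeR. Igf2 passed 0.01 with DESeq2 at 1.46, and at 1.17 (adjusted p = 4.23e-22) without control mouse 2. Igf1r passed it with DESeq2 at 0.50, and at 0.48 (adjusted p = 0.00226) without control mouse 2. Scaling by library totals alone moved the median of all genes from 0.017 to 0.16, and Igf2r was then at 0.13, which is -0.028 relative to that median. Of the comparisons of a member with an alternative, 112 kept direction and side of the threshold of 0.01, 5 crossed it and 4 changed sign. At 0.05 the edgeR calls of Igf2 and Igf1r were both lost without control mouse 3 and without any one of the mAktDKO mice.

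Without division by length the mean share over the mice was 78.2% for Igfbp5, 7.97% for Igfbp7, 3.92% for Igfbp6, 2.40% for Igfbp3 and 0.0509% for Igfbp2, in place of 50.5%, 25.5%, 13.6%, 2.96% and 0.135%. With the longest transcript as the length (chosen after seeing the data) it was 3.78% for Igfbp3. Leaving out single mice gave 49.7% to 51.4% for Igfbp5. The cause of the differences between the tests was not tested.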
